A study of Caenorhabditis elegans with 6 samples.

Results

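The 10 genes described here are the transcription regulators that pace the molts of the nematode Caenorhabditis elegans, together with the myrf genes and their partner. They were taken by name: myrf-1, myrf-2, pan-1, nhr-23, nhr-25, grh-1, blmp-1, bed-3, lin-42 and nhr-85. All 10 were found by WormBase identifier among the 20190 genes of the deposited count table, and all 10 passed the expression filter that left 15024 genes for testing. Each of the 10 had counts in all 6 libraries.

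The libraries hold polyadenylated RNA of intact L1 (first-stage) larvae, 2 for each of 3 strains. HW3826 carries maIs105, an integrated array in which the col-19 promoter, active in adult epidermis, drives GFP. The design text equates HW3826 with VT1367, the name used in the growth text. GR1395, spelled GR1935 in the growth text, carries mgIs49, an array with an mlt-10 promoter driving destabilised GFP and a ttx-3 reporter for the AIY interneurons. N2 is the wild-type laboratory strain without an array. Larvae of all 3 strains were starved, synchronised overnight in M9 buffer and harvested after 4 hours at 25 °C. The labels give none of the 3 strains a myrf-1 mutation, and each array strain is 1 line. They do not tell whether the libraries of a strain are separate cultures, so p-values here cover a spread between libraries that may be technical. In whole-larva RNA, fewer cells of a type and less RNA per cell cannot be told apart.

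Larvae of C. elegans replace their cuticle at the end of each stage, and many epidermal transcripts rise and fall once per molt. The cycle depends on a small group of transcription factors: NHR-23, the relative of vertebrate ROR receptors, NHR-25, the relative of fly Ftz-F1, the Grainyhead protein GRH-1, the Blimp-1 relative BLMP-1, the BED zinc finger protein BED-3 and MYRF-1. MYRF proteins are made as membrane proteins, reach the cell surface together with the leucine-rich repeat protein PAN-1, and release a fragment that enters the nucleus. LIN-42 is the worm relative of the clock protein Period, and NHR-85 is related to Rev-Erb receptors. NHR-85 works with NHR-23 in pulsed transcription of the microRNA gene lin-4, and LIN-42 limits such pulses.

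Library totals were between 42593688 and 54957641 counts. Markers of 6 tissues (epidermis, intestine, muscle, pharynx, neurons and germ cells) had at least 1 count in all libraries, while 4 genes of adults, 3 vitellogenin genes and col-19, summed to between 0.357 and 0.81 CPM. CPM are counts scaled here by library total and trimmed-mean (TMM) factors. N2 replicate 2 had a trend with gene length: at the deposited lengths of the 10 genes, its smoothed deviation from the mean of all libraries was between -0.178 (myrf-2) and -0.035 (grh-1) on the log2 scale. All 10 genes are longer than the median tested gene of 1290 bases. Comparisons with N2 were therefore repeated with that trend removed.

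In N2 the 10 genes spanned a 54.5-fold range of level per length, measured as TPM. TPM are counts divided by the deposited gene length, then scaled by the library's sum of such values over all genes. pan-1 was highest at 110 ± 18.9 TPM (mean ± SD, n = 2 libraries, as for all means here), above 92.4% of the tested genes. myrf-2 followed at 61.8 ± 11 TPM and myrf-1 at 40.3 ± 5.41 TPM. The membrane-bound factors and their partner thus held the top 3 places in all 6 libraries. blmp-1 came next at 21.7 ± 3.6 TPM, ahead of nhr-25 at 16.7 ± 3.45 TPM, and the libraries of this pair almost met, with 19.2 TPM both for the lower library of blmp-1 and for the higher one of nhr-25.

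grh-1 (9.3 ± 0.127 TPM), nhr-23 (8.92 ± 1.72 TPM) and nhr-85 (7.38 ± 0.468 TPM) lay below the median tested gene of 11.2 TPM. The N2 libraries of nhr-23 overlapped those of grh-1 and of nhr-85, so its place between them is not set beyond the spread, while grh-1 and nhr-85 did not overlap each other. By strain means these 3 ran nhr-85, nhr-23, grh-1 from high to low in HW3826 and grh-1, nhr-85, nhr-23 in GR1395. The other places were the same in all 6 libraries. bed-3 was at 3.48 ± 0.11 TPM and lin-42 was lowest at 2.02 ± 0.0711 TPM, above 23.5% of the tested genes. With merged annotated exons in place of the deposited lengths, the first 5 and the last 2 places were the same. The 3 in between changed places, with nhr-23 at 10.5, nhr-85 at 5.96 and grh-1 at 5.52 TPM, since the deposited length of grh-1 is 1866 bases against 3039 bases of annotated exon.

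**Figure D1:**
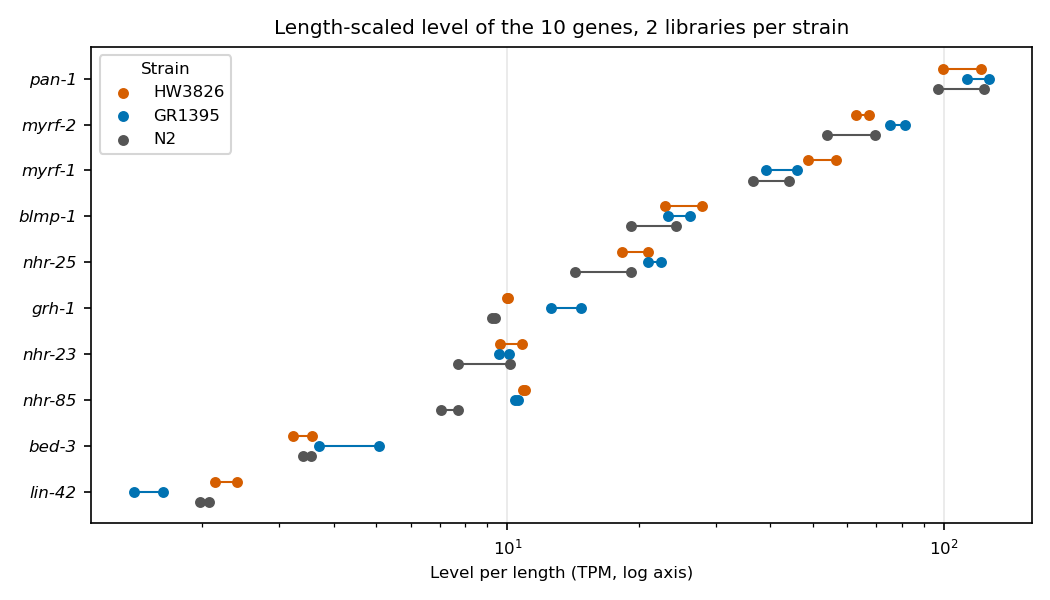
Level per length (TPM, log axis) of the 10 genes in HW3826, GR1395 and N2. Points are single libraries, with a line joining those of a strain, and genes are ordered by their N2 mean, with pan-1 (110 TPM) at the top and lin-42 (2.02 TPM) at the bottom.

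The genes are spread over 5 chromosomes (WBcel235, the assembly behind ce11). myrf-1 lies on chromosome II, positions 10496987 to 10502541, with 1 annotated transcript, and lin-42 lies on the same chromosome at 1233236 to 1252359 with 7. nhr-23 (7214745 to 7221299), grh-1 (1258201 to 1268155), blmp-1 (10409302 to 10414773) and nhr-85 (13055201 to 13062122) are on chromosome I. myrf-2 (10180940 to 10194377, 11 transcripts) and nhr-25 (13008493 to 13013964) are on X, pan-1 (4562738 to 4566283) on III and bed-3 (9916524 to 9921967) on IV. The counts are per gene, so isoforms are not resolved. nhr-85 shares 835 exon bases with npr-14, a gene on the opposite strand. Whether strand was used in counting is not given in the sources used here, so reads of this pair cannot be told apart with certainty. pan-1 shares 9 exon bases with mlcd-1 and bed-3 shares 30 with dur-1, both antisense.

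Differences between strains were small. Each strain pair was tested with edgeR's quasi-likelihood test across all 15024 genes, with Benjamini-Hochberg adjustment and a threshold of 0.05. In HW3826 against N2, 1 of the 10 genes was called, higher, where 6% of all tested genes were called (3.54% higher, 2.46% lower). That count was 0 without HW3826 replicate 1 and 2 without N2 replicate 1. No member was called lower, with 0 lower at an unadjusted p under 0.05 and 0 by DESeq2. In GR1395 against N2, 2 were higher and 1 lower, where 16.1% of all genes were called (7.93% higher, 8.15% lower). No member was called without GR1395 replicate 1, and without N2 replicate 2 none was lower. HW3826 against GR1395 gave 2 higher and 1 lower, beside 14.5% of all genes (7.33% higher, 7.17% lower). Without HW3826 replicate 2 or GR1395 replicate 1 no member was called, and 2 were lower without either N2 library (libraries were always left out singly). The libraries did not overlap for 4, 5 and 7 of the 10 genes in these comparisons, where the same held for 48.8%, 59.8% and 62.2% of all tested genes.

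In HW3826 against N2 the 10 genes had a median log2 fold change of 0.12, beside -0.013 over all genes, with 8 of 10 above 0. It was 0.14 in GR1395 against N2, beside 0.012, again with 8 of 10 above 0. With the length trend removed the medians were 0.046 and 0.027, with 6 and 5 of 10 above 0. Both comparisons use the same N2 libraries. HW3826 against GR1395 does not contrast N2, though the N2 libraries are part of the same fit. It had a median of 0.02 with 5 of 10 above 0, and 0.029 with the trend removed. The 95% interval of a member, not adjusted for multiple tests, reached a median of 0.22 to either side on the log2 scale. Larger differences could still miss the adjusted threshold, as myrf-1 did at 0.33 in HW3826 against N2 (edgeR adjusted p = 0.0712).

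**Figure D2:**
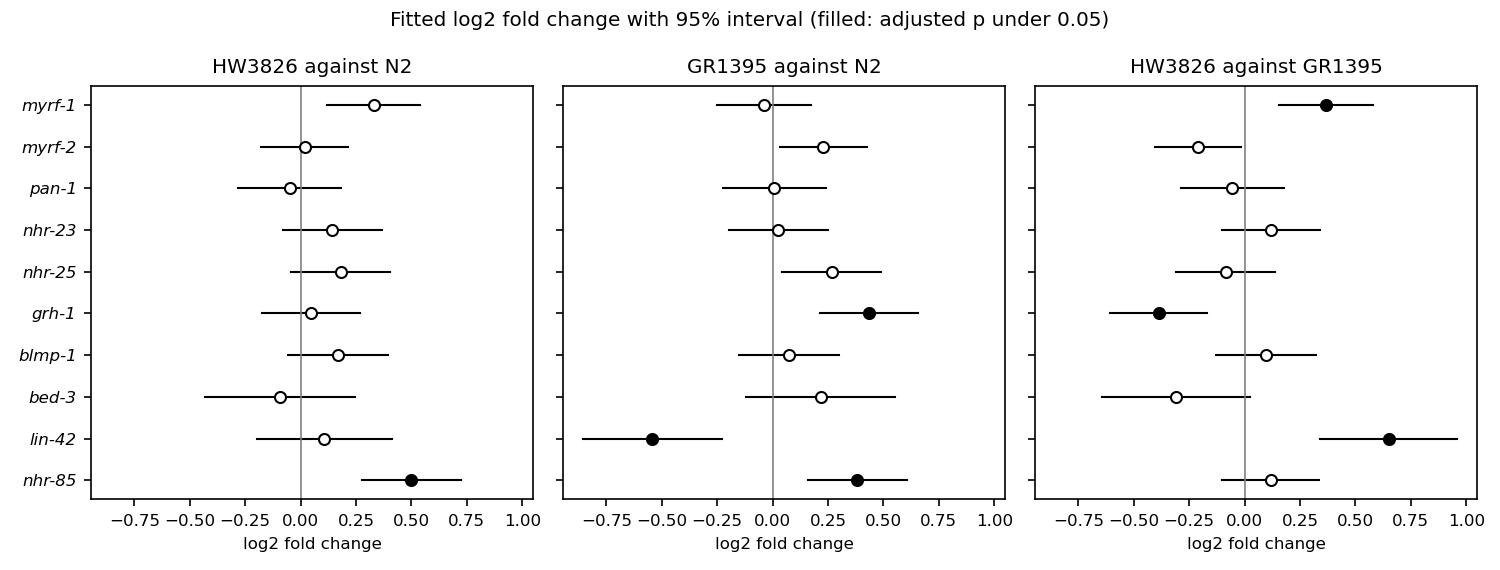
Fitted log2 fold changes of the 10 genes in the 3 comparisons, with 95% intervals from edgeR that are not adjusted for multiple tests. Filled points passed an adjusted p of 0.05: nhr-85 in HW3826 against N2, grh-1, lin-42 and nhr-85 in GR1395 against N2, and myrf-1, grh-1 and lin-42 in HW3826 against GR1395.

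myrf-1, the gene whose mutant phenotype the series is about, was highest in HW3826. It had 146 and 165 CPM in the HW3826 libraries, 110 and 131 in GR1395, and 131 and 117 in N2. Both HW3826 libraries lay above the other 4, while those of GR1395 and N2 overlapped. Against GR1395, myrf-1 was 1.29-fold higher in HW3826 (95% interval 1.11 to 1.49, log2 0.37, SE 0.098, edgeR adjusted p = 0.0253). Without HW3826 replicate 2 or GR1395 replicate 1 that call ended, at log2 0.28 and 0.25 (adjusted p = 0.173 and 0.239). With the length trend removed it stayed at 0.37 (adjusted p = 0.00633).

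Against N2, the log2 difference of myrf-1 in HW3826 was 0.33 (interval 0.12 to 0.54, adjusted p = 0.0712), which did not pass. DESeq2 (adjusted p = 0.0306) and the fit without an expression filter (0.0248) called it, and removal of the length trend lowered it to 0.22 (0.138). GR1395 against N2 gave -0.04 (interval -0.25 to 0.17, adjusted p = 0.832), and -0.15 with the trend removed (0.208). The interval leaves room for a change of up to 1.13-fold higher or down to 0.841 of N2.

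myrf-2, the paralog, had 249 and 259 CPM in HW3826, 281 and 307 in GR1395, and 273 and 229 in N2. Here both GR1395 libraries were above the other 4, a different strain order from myrf-1. None of its comparisons passed. The log2 difference was 0.02 in HW3826 against N2 (interval -0.18 to 0.21), 0.23 in GR1395 against N2 (0.03 to 0.42, adjusted p = 0.101) and -0.21 in HW3826 against GR1395 (-0.41 to -0.02, adjusted p = 0.14). myrf-2 is the longest of the 10 genes, and with the length trend removed its difference from N2 was -0.13 in HW3826 (adjusted p = 0.326) and 0.08 in GR1395 (0.42). Without N2 replicate 1, and with the trend left in, the GR1395 difference was 0.36 and passed (0.00594). HW3826 against GR1395 passed with the trend removed, at -0.21 (adjusted p = 0.0407), as it did with these strains fitted alone (0.0402) or without N2 replicate 1 (0.0367) or 2 (0.039).

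The ratio of the paralogs was also taken in each library. myrf-1 per length stood at 0.776 and 0.842 of myrf-2 in the HW3826 libraries, at 0.52 and 0.564 in GR1395, and at 0.634 and 0.675 in N2. The ratios of the 3 strains did not overlap, and no test was made of them. For levels of single genes, libraries did not overlap in 48.8% (HW3826 and N2), 59.8% (GR1395 and N2) and 62.2% (HW3826 and GR1395) of all tested genes. pan-1, which carries MYRF proteins to the surface, had 180 and 214 CPM in HW3826, 191 and 218 in GR1395, and 220 and 187 in N2. The 3 strains overlapped, and its log2 differences were -0.05 in HW3826 against N2 (interval -0.28 to 0.18), 0.0071 in GR1395 against N2 (-0.22 to 0.24) and -0.06 in HW3826 against GR1395 (-0.29 to 0.18), none of which passed.

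**Figure D3:**
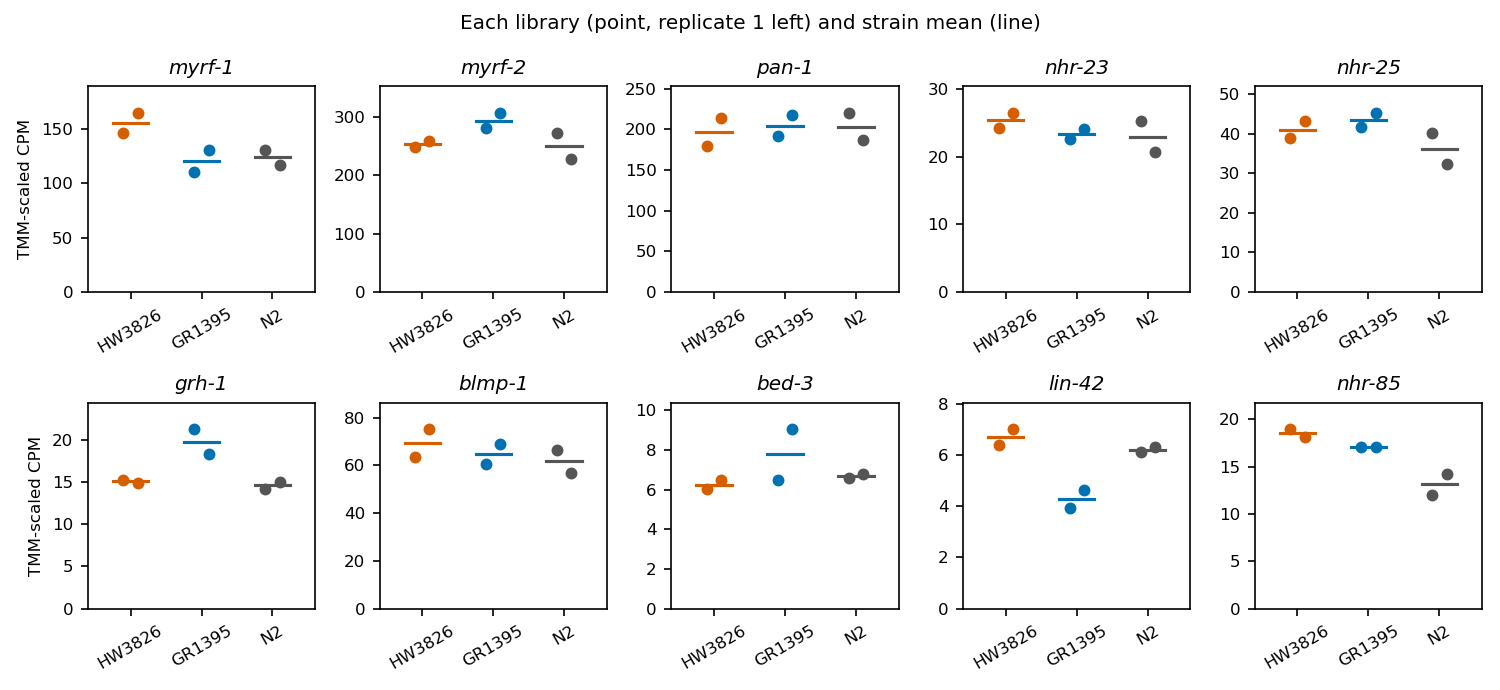
TMM-scaled CPM of each gene in HW3826, GR1395 and N2. Each panel has its own axis starting at 0, points are libraries with replicate 1 on the left, and lines are strain means. lin-42 is lowest in both GR1395 libraries, nhr-85 is lowest in both N2 libraries and myrf-1 is highest in both HW3826 libraries.

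nhr-23, needed for every larval molt, had 24.2 and 26.5 CPM in HW3826, 22.7 and 24.1 in GR1395, and 25.2 and 20.7 in N2. The HW3826 libraries lay above those of GR1395 by a small margin, and N2 overlapped both strains. Its log2 difference was 0.14 in HW3826 against N2 (interval -0.08 to 0.37, adjusted p = 0.511), 0.02 in GR1395 against N2 (-0.2 to 0.25) and 0.12 in HW3826 against GR1395 (-0.1 to 0.34), and none passed. With the length trend removed, the differences from N2 were 0.063 in HW3826 and -0.063 in GR1395.

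nhr-25, which acts in epidermal fate as well as molting, had 38.8 and 43.2 CPM in HW3826, 41.7 and 45.2 in GR1395, and 40 and 32.3 in N2. N2 replicate 2 was the lowest of the 6. The log2 differences were 0.18 in HW3826 against N2 (adjusted p = 0.38), 0.27 in GR1395 against N2 (adjusted p = 0.0973) and -0.09 in HW3826 against GR1395 (adjusted p = 0.619). Both comparisons with N2 passed only when N2 replicate 1 was left out, at 0.34 (adjusted p = 0.0434) in HW3826 and 0.43 (0.00616) in GR1395.

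grh-1, the Grainyhead gene, was higher in GR1395 than in either other strain. It had 15.3 and 15 CPM in HW3826, 21.3 and 18.3 in GR1395, and 14.2 and 15.1 in N2. Both GR1395 libraries were above the other 4, and those of HW3826 and N2 overlapped. Against N2, grh-1 rose 1.35-fold in GR1395 (interval 1.16 to 1.57, log2 0.44, SE 0.10, adjusted p = 0.0131). In HW3826 the log2 difference from N2 was 0.05 (interval -0.17 to 0.27, adjusted p = 0.859), and HW3826 was lower than GR1395 by a log2 of -0.39 (SE 0.10, adjusted p = 0.0217). The call against N2 ended without GR1395 replicate 1 (0.32, adjusted p = 0.158), and the call of HW3826 against GR1395 ended without that library (0.241) or either HW3826 library (0.0914 and 0.108).

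blmp-1, which raises the amplitude of oscillating transcription, had 63.6 and 75.1 CPM in HW3826, 60.7 and 69 in GR1395, and 66.5 and 56.8 in N2. All 3 strains overlapped, and no comparison passed. The log2 differences were 0.17 in HW3826 against N2 (interval -0.06 to 0.4, and 0.076 with the length trend removed), 0.07 in GR1395 against N2 (-0.15 to 0.3, and -0.028 with the trend removed) and 0.1 in HW3826 against GR1395 (-0.13 to 0.32).

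bed-3, needed for molting and for vulval cell divisions, had wider intervals than the other 9 genes. It had 6.04 and 6.47 CPM in HW3826, 6.51 and 9.05 in GR1395, and 6.57 and 6.79 in N2. GR1395 replicate 2 stood above the other 5 libraries. No comparison passed, with log2 differences of -0.09 in HW3826 against N2 (interval -0.43 to 0.24), 0.22 in GR1395 against N2 (-0.12 to 0.55) and -0.31 in HW3826 against GR1395 (-0.64 to 0.02). Without GR1395 replicate 2 the GR1395 difference from N2 was -0.038.

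lin-42, the Period relative, was lower in GR1395 than in either other strain. It had 6.38 and 7 CPM in HW3826, 3.93 and 4.62 in GR1395, and 6.12 and 6.29 in N2. In counts these were 335 and 333 for HW3826, 223 and 220 for GR1395, and 261 and 282 for N2. The GR1395 libraries were the lowest 2 of the 6. Against N2, lin-42 fell to 0.687 of the N2 level in GR1395 (interval 0.553 to 0.852, log2 -0.54, SE 0.15, adjusted p = 0.0237).

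In HW3826, lin-42 differed from N2 by a log2 of 0.11 (interval -0.2 to 0.41, adjusted p = 0.746), or -0.0033 with the length trend removed, and it was 1.57-fold higher than in GR1395 (interval 1.27 to 1.94, adjusted p = 0.00913). The fall in GR1395 was larger with the length trend removed (-0.66, adjusted p = 0.00822). That call ended without N2 replicate 2 (-0.52, adjusted p = 0.104) or GR1395 replicate 1 (-0.43, 0.192), and the call between the array strains ended without HW3826 replicate 2 (0.59, 0.0578) or GR1395 replicate 1 (0.53, 0.11).

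nhr-85, the Rev-Erb relative, was the 1 gene of the 10 that was called in both array strains against N2. It had 18.9 and 18.2 CPM in HW3826, 17.1 and 17.1 in GR1395, and 12 and 14.2 in N2. All 4 libraries of the array strains were above both N2 libraries. nhr-85 rose 1.41-fold in HW3826 (interval 1.21 to 1.65, log2 0.50, SE 0.10, adjusted p = 0.0118) and 1.30-fold in GR1395 (interval 1.12 to 1.52, log2 0.38, SE 0.10, adjusted p = 0.0253), with the same N2 libraries in both. Between the array strains the log2 difference was 0.12 (interval -0.1 to 0.34, adjusted p = 0.471).

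The HW3826 call of nhr-85 ended without HW3826 replicate 1 (0.46, adjusted p = 0.0728), and with the length trend removed it was 0.47 (0.0195). The GR1395 call ended without N2 replicate 1 (0.27, 0.106), GR1395 replicate 1 (0.38, 0.13) or GR1395 replicate 2 (0.38, 0.091), and with both a replicate block and the trend removed (0.34, 0.0654). npr-14, which overlaps nhr-85 on the other strand, had 5.56 and 6.22 CPM in HW3826, 6.34 and 7.28 in GR1395, and 7.32 and 5.49 in N2. Its log2 difference was -0.12 in HW3826 and 0.09 in GR1395, both against N2, and neither passed.

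**Figure D4:**
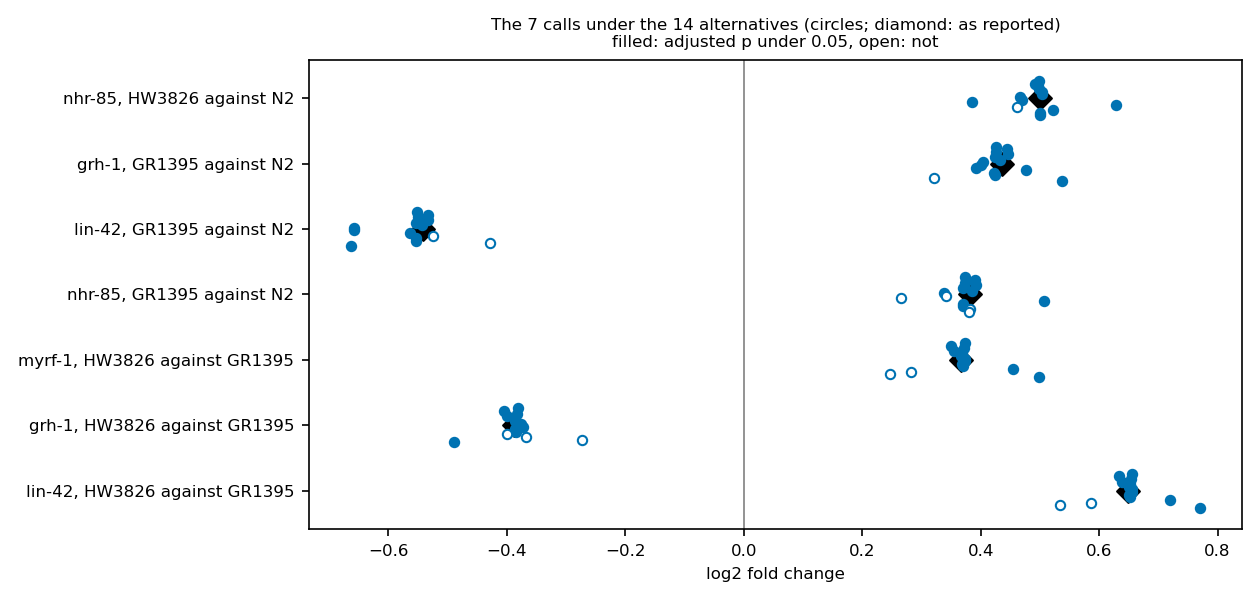
The 7 calls among the 10 genes, each as reported (diamond) and under 14 alternatives of processing or left-out libraries (circles, filled where adjusted p was under 0.05). No alternative turned the direction of any of the 7, and each of them had at least 1 alternative in which it did not pass.

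The shapes of the 10 profiles were compared by the distance between their log2 CPM over the 6 libraries, each centred on its own mean. nhr-23 and blmp-1 were the closest pair, at 0.12, and myrf-2 and nhr-25 came next at 0.189. grh-1 and lin-42 were the farthest apart at 1.21, with opposite strain orders in GR1395. myrf-1 lay closest to blmp-1 (0.287) and nhr-23 (0.298) and at 0.594 from myrf-2. These distances share library effects such as the length trend and are a description. Among the 8077 tested genes of at least 10 CPM, the 5 nearest to myrf-1 were hum-6 (0.109), F38E9.1 (0.111), scav-5 (0.117), F36G3.1 (0.136) and the cytolinker gene vab-10 (0.136). Ranked by Pearson correlation over the 6 libraries, 0 of these 5 were among the top 5.

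The other genes of the pathway were taken in 3 lists, chosen with earlier results of these data known. Of 17 partners and other regulators, 2 were higher and 0 lower in HW3826 against N2, beside 3.54% and 2.46% of all tested genes. Their median log2 was 0.04, beside -0.013 over all genes. With p unadjusted, under 0.05, the list had 4 higher and 1 lower, DESeq2 called 3 higher and 0 lower, and 4 were higher without N2 replicate 1. daf-12, a nuclear hormone receptor gene, rose by 0.45 (adjusted p = 0.0383) and hbl-1, a Hunchback relative of the heterochronic pathway, by 0.41 (0.049). Neither passed without N2 replicate 2, without either HW3826 library, with a replicate block or with these strains fitted alone (adjusted p up to 0.186 for daf-12 and 0.214 for hbl-1), and hbl-1 also missed without either GR1395 library, with the length trend removed, with upper-quartile factors or with a stricter filter.

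In GR1395 against N2, 1 of the 17 was higher and 2 lower, beside 7.93% and 8.15% of all tested genes, with a median of 0.038. lin-14, which specifies first-stage fates, rose by 0.33 (adjusted p = 0.0332). smo-1, which encodes the SUMO protein that modifies NHR-25, fell by 0.33 (0.0196), and tim-1, a Timeless relative, fell by 0.29 (0.0238). All 3 calls ended on leaving out N2 replicate 2 or GR1395 replicate 1 (highest adjusted p 0.214). Without N2 replicate 1, 4 were higher. lin-14 also missed without GR1395 replicate 2 or with these strains fitted alone, and smo-1 with the length trend removed. HW3826 against GR1395 called 0 of the 17 in edgeR, beside 14.5% of all tested genes. Left unadjusted, p was under 0.05 for 3 higher and 0 lower, and DESeq2 called 0. Without N2 replicate 1 or 2, or with these strains fitted alone, 2 were higher.

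Molting effectors, a mixed list that includes matrix, protease, inhibitor and patched-related genes, were taken as 18 genes. Of these 17 were tested and bli-5 was under the filter. In GR1395 against N2, 8 fell and 1 rose, beside 8.15% and 7.93% of all tested genes. The median log2 was -0.44, beside 0.012 over all genes. Below 0 were 11 of the 17, and 6 were above, up to 0.84 for nas-36 (edgeR adjusted p = 0.069). The list summed to 872 and 910 CPM in GR1395 and to 935 and 875 in N2, which overlap. Most of each sum is apl-1, with a log2 difference of 0.04 that did not pass. mlt-11, a gene for a Kunitz-type inhibitor, had 1.16 and 1.55 CPM in GR1395, against 3.87 and 3.26 in N2 (log2 -1.40, SE 0.22, adjusted p = 0.00167). noah-2, for a matrix protein of the zona pellucida family, had 5 and 6.82 CPM in GR1395, against 15.3 and 15.7 in N2 (log2 -1.40, SE 0.14, adjusted p = 0.000104). sym-1, for a leucine-rich repeat matrix protein, fell by 1.29 and mlt-8 by 1.11. The calls of these 4 held in each alternative in which they were tested. ptr-23, a patched-related gene, rose by 0.32 (adjusted p = 0.0132). That call was lost without N2 replicate 2 or either GR1395 library, and with a replicate block together with removal of the length trend. The number lower was 6 without GR1395 replicate 1 and 9 without GR1395 replicate 2, with 0 higher in both. None was higher without N2 replicate 2, and 4 were without N2 replicate 1.

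In HW3826 against N2, 2 effectors rose and 0 fell, beside 3.54% and 2.46% of all tested genes. The median was 0.27, or 0.14 with the length trend removed. Left unadjusted, p was under 0.05 for 8 higher and 0 lower, and DESeq2 called 2 higher and 0 lower. noah-1 rose by 0.45 (adjusted p = 0.011) and sym-1 by 0.44 (0.0271). noah-1 missed without either HW3826 library, and with a replicate block together with removal of the length trend. sym-1 missed when N2 replicate 1 or HW3826 replicate 2 was left out. Without each of these 3 libraries 1 of the 17 was called, and without HW3826 replicate 2, where both missed, it was another gene. 3 were called without either GR1395 library, and 4 with these strains fitted alone or without the expression filter.

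Directly compared, HW3826 against GR1395, the effectors had a median log2 of 0.64 beside -0.0081 over all genes. In HW3826, 9 of 17 were higher than in GR1395 and 0 lower, beside 7.33% and 7.17% of all tested genes. DESeq2 gave the same counts, and the unadjusted test 10 and 0. The 4 with the largest differences were mlt-11 (2.11, SE 0.22), sym-1 (1.73, SE 0.11), noah-2 (1.67, SE 0.14) and noah-1 (1.40, SE 0.095), each with the HW3826 libraries above those of GR1395. mlt-10, whose promoter is part of mgIs49, had 12.7 and 12.7 CPM in HW3826, 6.51 and 9.93 in GR1395, and 9.36 and 9.6 in N2. In the full fit, myrf-2, pan-1, nhr-23, nhr-25, blmp-1 and bed-3 of the 10 genes were called in none of the 3 comparisons. The other members, myrf-1, grh-1, lin-42 and nhr-85, were called, as given above. Over all tested genes, 6% were called between HW3826 and N2, 16.1% between GR1395 and N2, and 14.5% between the array strains. Whether the regulators differed less than the effectors was not tested.

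**Figure D5:**
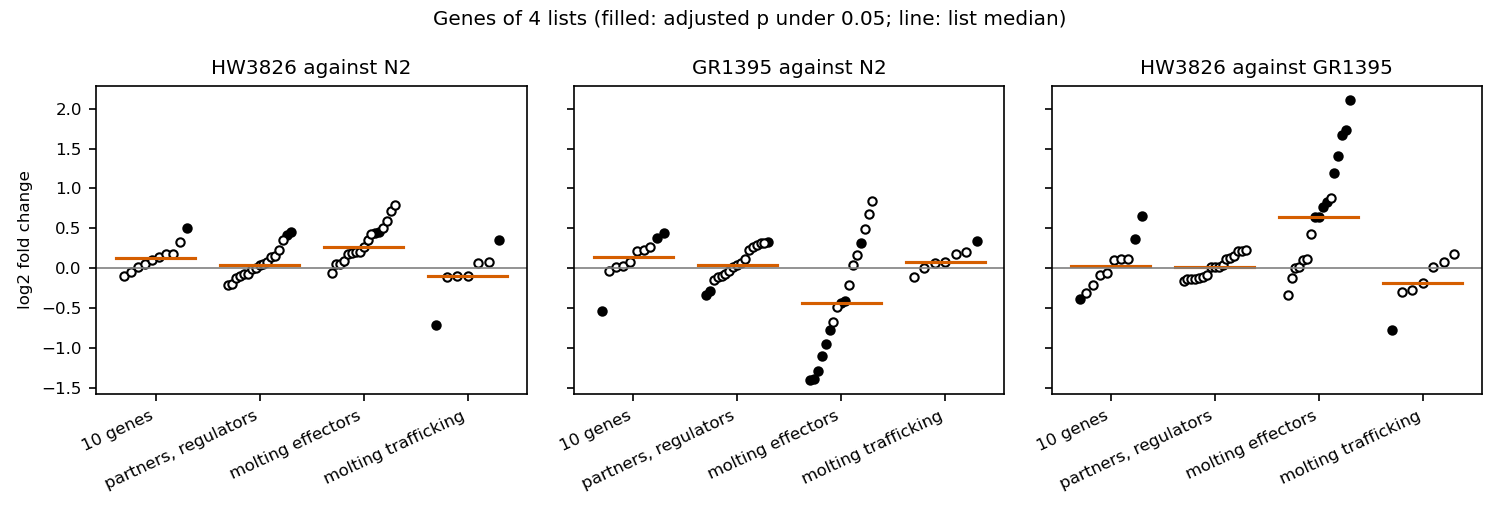
Log2 fold changes of the tested genes of 4 lists in the 3 comparisons, with filled points past an adjusted p of 0.05 and a line at the list median. The molting effectors have a median of -0.44 in GR1395 against N2 (range -1.40 to 0.84) and 0.64 in HW3826 against GR1395 (-0.34 to 2.11). The 10 genes described here have medians of 0.14 (range -0.54 to 0.44) and 0.02 (-0.39 to 0.65).

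Of 7 genes for membrane traffic and kinases needed in molting, 1 was higher and 1 lower in HW3826 against N2, 1 higher and 0 lower in GR1395 against N2, and 0 higher and 1 lower in HW3826 against GR1395 (2 lower without either N2 library). In these comparisons 6%, 16.1% and 14.5% of all tested genes were called. mlt-3 encodes an ankyrin repeat partner of the NEKL kinases. It had 14.2 and 13 CPM in HW3826, 24.4 and 22.4 in GR1395, and 22.6 and 22.2 in N2. The HW3826 libraries did not overlap the others, and mlt-3 was lower by a log2 of -0.72 against N2 (SE 0.096, adjusted p = 0.000596) and -0.78 against GR1395 (adjusted p = 0.000197), in every alternative. lrp-1, a relative of mammalian megalin, rose by 0.35 in HW3826 (adjusted p = 0.0436) and by 0.34 in GR1395 (0.0272), both against N2. Neither lrp-1 call held with the length trend removed, at 0.028 and 0.057, nor without N2 replicate 2 or either library of the array strain concerned. The HW3826 call held in 4 of 14 alternatives, and was also lost with a replicate block, with these strains fitted alone, with the stricter filter and without either GR1395 library. The GR1395 call held in 9 of 14.

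Lists of maternal and tissue genes are given as summed levels, in which abundant genes weigh most. Counts called in these lists stand beside shares over all tested genes. The shares were 6% in HW3826 against N2, 16.1% in GR1395 against N2 and 14.5% in HW3826 against GR1395. Maternal genes (pos-1, era-1, oma-1, meg-1 and mex-5) summed to 95.6 and 64.4 CPM in HW3826, 9.81 and 18.8 in GR1395, and 80.6 and 105 in N2. All 5 were called lower in GR1395 against N2 (2 without N2 replicate 1, 1 without N2 replicate 2). The 10 epidermal markers summed to 1951 and 1998 CPM in HW3826, 1615 and 1710 in GR1395, and 1810 and 1594 in N2. Much of that sum is vab-10, the 1 epidermal marker called, which was higher in HW3826 than in N2 (log2 0.32) and in GR1395 (0.40). The list median was 0.047 in HW3826 and 0.0042 in GR1395, both against N2, with elt-1 and elt-3 at -0.21 each in HW3826. rol-6 of this list had 1 to 7 counts per library and was not tested.

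Intestinal markers summed to 3674 and 3644 CPM in HW3826, 2651 and 2848 in GR1395, and 3381 and 3459 in N2. Most of that sum is act-5, an actin gene, which fell by 0.39 in GR1395 against N2. Against N2, elt-2, the gene of an intestinal GATA factor, rose by 0.68 in HW3826 and by 0.59 in GR1395. In neither array strain were elt-7, ges-1 or vha-6 called against N2, with elt-7 at -0.26 in HW3826 and 0.04 in GR1395. The list median against N2 was 0.041 in HW3826 and -0.059 in GR1395. Muscle markers summed to 5220 and 5007 CPM in HW3826, 5381 and 5301 in GR1395, and 4560 and 4403 in N2, with the myosin genes myo-3 and unc-54 called higher in GR1395 against N2. The pharynx list summed to 2116 and 2105 CPM in HW3826, 2349 and 2410 in GR1395, and 2036 and 1830 in N2, with 3 of 4 called higher in GR1395 against N2. The neuron list summed to 1455 and 1399 CPM in HW3826, 1583 and 1592 in GR1395, and 1523 and 1479 in N2, with 1 of 6, the synaptobrevin gene snb-1, called lower in HW3826 against GR1395. Germ cell markers lay between 93.4 and 116 CPM in sum. Of these 5 genes, 2 were called higher in HW3826 against GR1395, and 1, iff-1, was lower in GR1395 against N2 (log2 -0.44). The part of these differences in the values of lin-42, grh-1 and the effectors was not tested.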

How the data were processed

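The authors deposited raw counts per gene for 6 libraries, with a gene length in bases, and a log-scale table that was not used here. The submitters' processing notes name the build ce11 and HISAT2. Their roles, the counter and whether strand was used: not given in the sources used here. Names and coordinates were matched by WormBase identifier to Ensembl release 115 (WBcel235), which covered 20105 of 20190 genes.

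Counts were tested with edgeR 4.0.16 (R 4.3.3, limma 3.58.1): TMM scaling, the default expression filter, robust quasi-likelihood fits and 1 coefficient per strain over all 6 libraries, with 3 residual degrees of freedom. Standard errors are the log2 fold change over the root of F. Benjamini-Hochberg adjustment covered 15024 genes. TPM were computed from counts and deposited lengths. A floor of 3 counts was between 0.0546 and 0.0704 CPM by library total, for counting error only. Alternatives were DESeq2 1.42.0, upper-quartile factors, other filters, strains fitted alone, a replicate block, removal of the length trend by a loess smooth per library, and leaving out each library. The fit was tested on simulated data.

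Members and lists were chosen with earlier results of these data known. Beside the 10 members, listed genes past the threshold were named, at most the 4 largest rises and falls per list and comparison, and the 5 genes nearest to myrf-1. mlt-10 was named for its promoter in mgIs49, and npr-14 for its overlap.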

Additional observations from a re-analysis of the deposited data

Results flagged for a closer look

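For 3 of the 10 genes the differences of the array strains from N2 were themselves different, by the direct test of HW3826 against GR1395 in edgeR. That test called 14.5% of all tested genes. myrf-1 was higher in HW3826 by a log2 of 0.37 (adjusted p = 0.0253), with 0.33 in HW3826 and -0.04 in GR1395, each against N2. grh-1 differed by -0.39 (adjusted p = 0.0217), with 0.05 in HW3826 and 0.44 in GR1395. lin-42 differed by 0.65 (adjusted p = 0.00913), with 0.11 in HW3826 and -0.54 in GR1395. In all 3 genes the 2 HW3826 libraries did not overlap the 2 GR1395 libraries, which held for 62.2% of all tested genes. Each of the 3 calls ended without GR1395 replicate 1, and each ended without HW3826 replicate 2; that of grh-1 also ended without HW3826 replicate 1.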

How the results depend on the processing

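Over 420 repeats (30 values of the 10 genes under 14 alternatives), 365 kept direction and side of the threshold, 15 lost a call, 9 gained one and 31 changed sign, all 31 among values that passed in neither fit. With DESeq2 or without the expression filter, 2 members were called in HW3826 against N2 in place of 1. With single libraries left out, the members called ranged from 0 to 2 in HW3826 against N2 (1 in the full fit), 0 to 4 in GR1395 against N2 (3) and 0 to 4 in HW3826 against GR1395 (3), and the genes called from 378 to 1191 (902), 656 to 3428 (2416) and 745 to 2940 (2179). The labels do not tell whether replicate numbers pair libraries across strains. Differences of replicate 1 from replicate 2 correlated across genes at 0.0097 (HW3826 and GR1395), -0.184 (HW3826 and N2) and 0.014 (GR1395 and N2). These correlations cannot show whether libraries were paired. The replicate block gave 594, 1766 and 1664 calls and the same count of members, 1, 3 and 3. The cause of these shifts was not tested.

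The sign changes were in these log2 values. In HW3826 against N2, myrf-2 was -0.13 with the length trend removed and -0.13 with the block added, and ranged from -0.10 to 0.15 with single libraries left out. pan-1 ranged from -0.18 to 0.076 over the same settings, and lin-42 was -0.0033 with the trend removed and -0.0019 with the block added. In GR1395 against N2, pan-1 was -0.0015 with DESeq2, -0.00066 without the filter, -0.0032 with the strains alone, -0.039 with the trend removed and -0.043 with the block added. nhr-23 was -0.063 and -0.063, and blmp-1 -0.028 and -0.031, with the trend removed and with the block added. With single libraries left out, myrf-1 ranged from -0.17 to 0.081, pan-1 from -0.11 to 0.13, nhr-23 from -0.11 to 0.17, blmp-1 from -0.038 to 0.19 and bed-3 from -0.038 to 0.44. In HW3826 against GR1395 the same ranges were -0.18 to 0.068 for pan-1 and -0.024 to 0.22 for blmp-1.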

Other observations

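mlcd-1, chosen after its values were seen, lies antisense to pan-1 with 9 shared exon bases and was called where pan-1 was not. It had 42.2 and 38.3 CPM in HW3826, 29.9 and 30.4 in GR1395, and 47.5 and 41.4 in N2. GR1395 was lower than N2 (log2 -0.56, SE 0.089, edgeR adjusted p = 0.00163). HW3826 exceeded GR1395 by 0.42 on the log2 scale (adjusted p = 0.00752).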
